A study of Mus musculus with 95 samples.

Results

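The transcription factor gene Nfe2l2, which encodes Nrf2, and 9 genes that Nrf2 is known to switch on were followed in the nucleus accumbens of mice with and without ethanol dependence. The 9 target genes are Srxn1, Osgin1, Gclc, Gclm, Slc7a11, Txnrd1, Nqo1, Hmox1 and G6pdx. The 10 genes were chosen by symbol, with earlier results of these data known. Each symbol was matched to 1 Ensembl identifier of the count table, and they make up 10 of its 55471 features. All 10 passed the filter on low counts in each test described here.

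Nrf2 is the main transcription factor of the oxidative stress response. In resting cells the adaptor protein Keap1 holds it in the cytoplasm and passes it to degradation, and oxidants or electrophiles that modify Keap1 let it accumulate, enter the nucleus and bind, with a small Maf protein, to antioxidant response elements. Because this control acts largely on the protein, the RNA level of Nfe2l2 is a poor measure of its activity and the RNA of its targets is commonly read in its place. Astrocytes are known for a strong Nrf2 response and for supplying neighbouring neurons with glutathione precursors.

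Each mouse, on a B6;FVB background, carried the transgene Aldh1l1-EGFP/Rpl10a of the line JD130Htz, in which the astrocyte gene Aldh1l1 drives a ribosomal protein with a fluorescent tag, so that all groups share it. Translating ribosome affinity purification (TRAP) of the tagged ribosomes from nucleus accumbens punches gave the IP library of a mouse, which is enriched in RNA under translation in astrocytes, and RNA set aside ahead of that step gave its Input library, which stands for the whole tissue. Dependent mice went through 5 rounds of CIE within the CIE-2BC protocol (chronic intermittent ethanol exposure combined with voluntary drinking from a choice of bottles), nondependent mice had 2BC only, and naive mice had no ethanol. IP libraries numbered 18 from dependent mice (10 female, 8 male), 13 from nondependent mice (8 female, 5 male) and 15 from naive mice (8 female, 7 male), and Input libraries numbered 18, 15 and 16 in the same order of treatments. The age of the mice is not given in the labels.

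Of the 10 genes, 8 had an entry in the RefSeq promoter table for GRCm38.p6, with windows of 250 bases before and 50 bases after a transcription start, 10 windows in all. Gclc and Hmox1 had none. The core of the antioxidant response element, TGACNNNGC on either strand, was present in the windows of 5 genes (Nfe2l2, Srxn1, Gclm, Txnrd1 and G6pdx), against 13.99% of all 27025 genes of that table (12.39% of its 32851 windows). A related element bound by Nrf2-type factors with small Maf proteins, TGANTCAGC on either strand, was searched for after the windows had been read. It was present in Srxn1 and Osgin1, in both as TGAGTCAGC, against 1.37% of genes (1.19% of windows), and it overlapped no TGACNNNGC match in these windows. The windows of Srxn1 and Osgin1 are printed because these genes had the largest treatment differences, and those of Gclm and Txnrd1 because each holds 1 TGACNNNGC match and both genes were higher in dependent mice. Lower case is the RefSeq sequence on the strand of the gene, 5′ to 3′, and capitals mark the matches.
Srxn1: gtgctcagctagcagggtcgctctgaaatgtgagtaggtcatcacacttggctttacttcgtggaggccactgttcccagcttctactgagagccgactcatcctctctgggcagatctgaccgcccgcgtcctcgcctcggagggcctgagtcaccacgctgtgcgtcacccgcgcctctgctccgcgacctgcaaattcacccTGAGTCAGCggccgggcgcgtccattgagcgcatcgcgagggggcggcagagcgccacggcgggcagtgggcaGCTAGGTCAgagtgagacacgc
Osgin1: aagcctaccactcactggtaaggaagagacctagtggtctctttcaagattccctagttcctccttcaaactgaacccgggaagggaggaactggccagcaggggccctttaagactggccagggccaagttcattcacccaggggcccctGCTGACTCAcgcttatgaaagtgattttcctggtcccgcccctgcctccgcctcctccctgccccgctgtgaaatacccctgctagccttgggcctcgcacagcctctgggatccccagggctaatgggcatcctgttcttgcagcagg
Gclm: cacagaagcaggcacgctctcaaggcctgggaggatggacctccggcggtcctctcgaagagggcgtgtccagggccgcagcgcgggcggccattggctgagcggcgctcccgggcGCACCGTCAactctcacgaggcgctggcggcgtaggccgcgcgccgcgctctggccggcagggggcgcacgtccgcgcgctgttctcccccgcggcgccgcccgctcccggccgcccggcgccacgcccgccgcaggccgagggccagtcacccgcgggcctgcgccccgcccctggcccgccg
Txnrd1: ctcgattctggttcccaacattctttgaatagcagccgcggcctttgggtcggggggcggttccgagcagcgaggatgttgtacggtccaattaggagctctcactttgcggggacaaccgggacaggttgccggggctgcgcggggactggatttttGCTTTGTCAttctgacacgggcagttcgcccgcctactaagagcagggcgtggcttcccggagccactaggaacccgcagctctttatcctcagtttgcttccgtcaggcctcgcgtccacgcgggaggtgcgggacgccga
The Srxn1 window is chr2:152105274-152105573 on the plus strand, with TGAGTCAGC at bases -45 to -37 from the start and TGACNNNGC at bases 29 to 37 on the opposite strand. The Osgin1 window is chr8:119436897-119437196 on the plus strand, with TGAGTCAGC at bases -99 to -91 on the opposite strand. The Gclm window is chr3:122245307-122245606 on the plus strand, with its match at bases -134 to -126, and the Txnrd1 window, the second of 3 for that gene, is chr10:82858956-82859255 on the plus strand, with its match at bases -92 to -84, both on the opposite strand. A match of letters is a description of the sequence and was not tested for binding. Because TGANTCAGC was chosen after these windows had been read, its count beside the share of all genes is a description only. The windows of Nqo1 and Slc7a11 held neither element.

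Depth lay between 14314236 and 27146790 counts in IP (46 libraries) and between 12803108 and 23948193 counts in Input (49 libraries). The mice fell into 6 labelled batches. Batches C and G held 1 dependent mouse each, batch I held no naive mouse, batch L no nondependent mouse, and the 2 dependent IP libraries of batch K were both male. Treatment differences were therefore fitted in batches I to L with batch and sex in the model, on 16 dependent, 13 nondependent and 15 naive IP libraries and on 16, 15 and 16 Input libraries, while the levels below are over all libraries. Those levels, and the counts of libraries above all those of another treatment, are not adjusted for batch. The summed level of 10 astrocyte markers was 19024 to 26270 CPM (the count of a gene scaled to the total count of its library) in dependent, 19147 to 24749 CPM in nondependent and 19367 to 26031 CPM in naive IP libraries, and all 10 markers were higher in IP than in Input. Each library of a fraction came from a different mouse, so the p-values measure the spread between mice.

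In IP libraries, 7 of the 10 genes were higher in dependent than in naive mice, none was lower, and 3 did not pass the test (Nfe2l2, Slc7a11 and G6pdx). Over all 19979 genes tested, 4.67% were called in the same comparison, 2.81% higher (561 genes) and 1.86% lower (372 genes), by edgeR's quasi-likelihood test at a Benjamini-Hochberg adjusted p of at most 0.05. The median log2 fold change was 0.46 over the 10 genes and 0.0016 over all genes tested. Because the 10 genes were chosen with earlier results of these data known, these shares stand side by side as a description. IP libraries are enriched in astrocyte RNA and still hold RNA of other cells. The summed level of 6 neuron markers had a median of 1112 CPM in dependent and 1085 CPM in naive IP libraries. In Input libraries it was 3281 and 3060 CPM.

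Nfe2l2, the gene of Nrf2 itself (chr2:75675513-75704641 in GRCm38, minus strand), did not pass in any comparison of treatments. Its lowest, median and highest values were 32.04, 38.3 and 50.7 CPM in dependent, 35.5, 43.8 and 51.3 CPM in nondependent, and 30.2, 36.2 and 51.7 CPM in naive IP libraries. The 3 ranges overlapped almost fully. The log2 fold change of dependent over naive mice was -0.06 ± 0.08 (SE, adjusted p = 0.808) and that of dependent over nondependent mice -0.12 ± 0.07 (adjusted p = 0.562).

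Srxn1 (chr2:152105516-152111376, plus strand) encodes sulfiredoxin, which restores overoxidized peroxiredoxins. It had a lowest value of 67.3, a median of 120 and a highest value of 264 CPM in dependent IP libraries, 36.1, 96.7 and 141 CPM in nondependent ones, and 43.3, 65.1 and 77.9 CPM in naive ones. The levels, pooled over batches, were ordered dependent, nondependent, naive, with overlap at each step, and 14 of 18 dependent libraries lay above every naive library. Of the dependent libraries, 7 came from batch I, which held no naive mouse. With batch in the model, the log2 fold change of nondependent over naive mice was 0.20 ± 0.12 (SE, adjusted p = 0.603). The mean was 142 ± 68.0 CPM in dependent and 61.4 ± 13.2 CPM in naive mice (SD), and the log2 fold change was 0.87 ± 0.11 (SE, adjusted p = 5.4e-07).

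Osgin1 (chr8:119434124-119446256, plus strand), an oxidative stress induced growth inhibitor, had the largest fold change of the 10 genes and the lowest level. It ran from 1.73 through a median of 8.47 to 24.03 CPM in dependent, from 0.113 through 2.47 to 6.76 CPM in nondependent, and from 0 through 0.570 to 2.27 CPM in naive IP libraries. Of the 18 dependent libraries, 17 lay above every naive library, and 14 of 15 naive libraries lay below every dependent one. No Osgin1 read was counted in 3 naive IP libraries, where 3 counts, taken as the floor, stand for 0.123 to 0.202 CPM over the naive libraries. The log2 fold change of dependent over naive mice was 3.46 ± 0.46 (SE, adjusted p = 2.8e-06), and the ratio of the mean levels was 12.6.

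**Figure D1:**
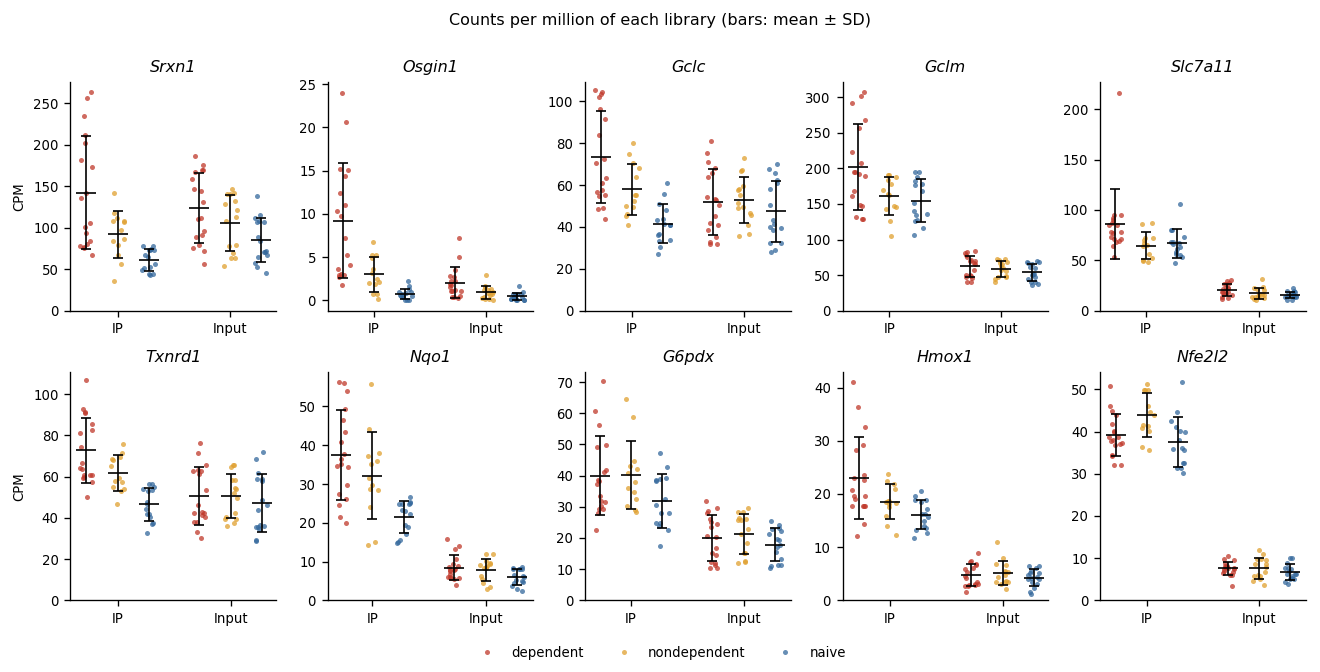
Level of each gene in CPM (vertical axes, each on its own scale) in the IP and Input libraries of dependent, nondependent and naive mice. Points are libraries, not adjusted for batch, and bars the mean ± SD. In IP, 17 of 18 dependent libraries lie above every naive library for Osgin1 and for Txnrd1, while the 3 treatments overlap almost fully for Nfe2l2.

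Of the glutathione genes, both subunits of glutamate-cysteine ligase, the first enzyme of glutathione synthesis, rose, and the cystine importer gene did not pass. Gclc, the catalytic subunit (chr9:77754535-77794485, plus strand), had 43.8, 66.8 and 105 CPM (lowest, median and highest) in dependent, 41.1, 55.4 and 80.1 CPM in nondependent, and 26.99, 41.2 and 61.0 CPM in naive IP libraries. Of the 18 dependent libraries, 11 lay above all naive ones, and the log2 fold change was 0.71 ± 0.10 (adjusted p = 6.5e-06). Gclm, the modifier subunit (chr3:122245557-122270732, plus strand), had 129, 194 and 308 CPM in dependent, 105, 164 and 191 CPM in nondependent, and 106, 152 and 195 CPM in naive IP libraries. Of the 18 dependent libraries, 9 lay above all naive ones. Its log2 fold change was 0.31 ± 0.09 (adjusted p = 0.0347). Its call was lost without a batch term, in a fit that took in all 6 batches (adjusted p = 0.0516). The call was also lost with any 1 of the 4 batches left out (0.0935 to 0.234) and without any 1 of the mice J01, J06, J07, J08, K13, K14 and L29 (up to 0.0954). Exons of Gclm overlap the processed pseudogene Gm6061 on the same strand and Gm17494 on the other strand, so reads of these could not be told apart with certainty.

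Slc7a11 (chr3:49892526-50443614, minus strand) encodes the cystine transporter xCT, which imports the precursor that limits glutathione synthesis. It had 53.3, 78.2 and 216 CPM in dependent, 48.2, 65.2 and 87.4 CPM in nondependent, and 46.9, 66.4 and 106 CPM in naive IP libraries. The highest value came from the dependent mouse I02, and it was the only dependent library above all naive ones. The log2 fold change was 0.25 ± 0.14 (adjusted p = 0.399).

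Txnrd1, the cytosolic thioredoxin reductase (chr10:82833951-82897712, plus strand), had 49.97, 65.4 and 107 CPM in dependent, 46.5, 59.5 and 76.0 CPM in nondependent, and 32.5, 46.8 and 56.5 CPM in naive IP libraries, with 17 of 18 dependent libraries above every naive one. Dependent over naive mice gave a log2 fold change of 0.51 ± 0.08 (adjusted p = 5.2e-05). With batches J and K only, the estimate was 0.46 and the adjusted p 0.0502.

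Nqo1 (chr8:107388225-107403206, minus strand), a quinone reductase that serves as a textbook Nrf2 target, had 20.01, 35.8 and 56.2 CPM in dependent, 14.4, 31.5 and 55.9 CPM in nondependent, and 14.9, 23.1 and 26.8 CPM in naive IP libraries. Dependent and nondependent libraries overlapped over nearly the whole range, and 14 of 18 dependent libraries lay above all naive ones. The log2 fold change of dependent over naive mice was 0.63 ± 0.12 (adjusted p = 0.000436). Hmox1, the inducible heme oxygenase (chr8:75093621-75100589, plus strand), had 12.1, 20.2 and 40.9 CPM in dependent, 12.3, 18.4 and 23.8 CPM in nondependent, and 11.6, 16.2 and 20.5 CPM in naive IP libraries. Its log2 fold change was 0.41 ± 0.11 (adjusted p = 0.0234), and the call was lost with batch J, K or L left out (adjusted p = 0.124 to 0.217), with batches J and K only (0.284) and without any 1 of the mice J07, K19, L25 and L29 (up to 0.0900).

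G6pdx (chrX:74409483-74429194, minus strand) encodes glucose-6-phosphate dehydrogenase, which supplies the NADPH that these reductases use. It had 22.6, 37.8 and 70.3 CPM in dependent, 28.4, 38.0 and 64.5 CPM in nondependent, and 17.5, 30.6 and 47.1 CPM in naive IP libraries, with wide overlap. The log2 fold change was 0.25 ± 0.11 (adjusted p = 0.205). Exons of G6pdx overlap those of Ikbkg on the opposite strand, and the use of strand in counting was not given in the sources used here, so their reads could not be told apart.

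Between genes, levels were compared per length, as RPKM, which divides the CPM by the length of the exons. In naive IP libraries the mean was highest for Gclm (24.6 ± 4.80 RPKM, SD) and Srxn1 (21.8 ± 4.66), followed by Nqo1 (13.8 ± 2.702), and lowest for Slc7a11 (4.81 ± 1.02) and Osgin1 (0.275 ± 0.231). In dependent IP libraries Srxn1 had a mean of 50.5 ± 24.1 RPKM and Gclm one of 32.2 ± 9.57 RPKM. Their ranges overlapped, and the order of these 2 genes was not tested.

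**Figure D2:**
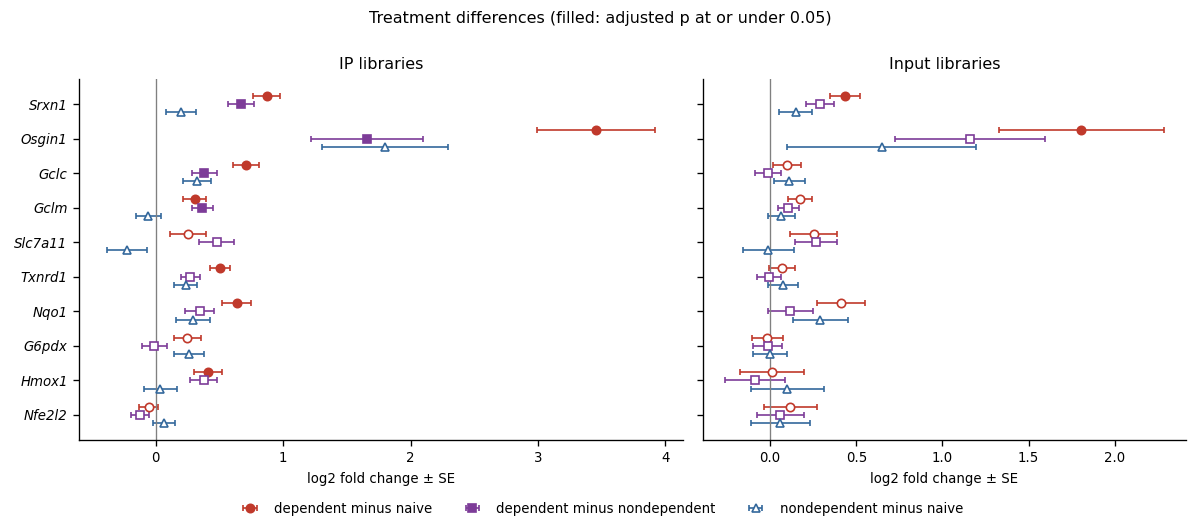
Log2 fold change ± SE of each gene (rows) for 3 pairs of treatments in IP libraries (left) and Input libraries (right), from edgeR's quasi-likelihood test. Filled symbols have an adjusted p of at most 0.05: 7 genes for dependent minus naive and 4 for dependent minus nondependent in IP, 2 for dependent minus naive in Input, and none for the other comparisons.

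Dependent mice were also set against nondependent mice, which had 2BC without the CIE rounds. In IP libraries 4 of the 10 genes were higher in dependent mice, none was lower and 6 did not pass, against 1.54% of all tested genes called, 1.1% higher (219) and 0.445% lower (89). The 4 genes were Srxn1 (log2 fold change 0.67 ± 0.10, adjusted p = 0.000151), Osgin1 (1.66 ± 0.44, adjusted p = 0.0386), Gclc (0.38 ± 0.10, adjusted p = 0.0228) and Gclm (0.36 ± 0.08, adjusted p = 0.0126). Slc7a11 (0.48 ± 0.14, adjusted p = 0.0608), Txnrd1 (0.27 ± 0.08, adjusted p = 0.0532) and Hmox1 (0.37 ± 0.11, adjusted p = 0.0633) lay just outside the threshold, and DESeq2, which called 7 of the 10 genes, included all 3. Nqo1 was at 0.34 ± 0.11 (adjusted p = 0.127) and G6pdx at -0.01 ± 0.10 (adjusted p = 0.984). The 4 calls held without any single mouse, in fits with the dispersion estimated inside the fit. With all mice, that setting called 7 of the 10 genes and 439 of all genes, against 308 of all genes in the test above. The test above was not itself repeated with a mouse left out. None of the 10 genes was called in the fit without batch I, in batches J and K only or in the fit with no batch term, which took in all 6 batches. Few genes of any kind were called in those 3 fits: 3 of 19752, 0 of 19895 and 92 of 20071 in the same order. Without the dependent mice I02, I05, I11 and J05, 1 of the 10 was called (Srxn1), and 137 of all 19702 genes.

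Within batches the comparison of dependent with nondependent mice was uneven. These within-batch differences are not adjusted for sex. In batch K the 2 dependent IP libraries were male, and the nondependent ones were 2 female and 1 male. The difference of mean log2 CPM of Srxn1 was 0.97 in batch I (7 against 7 mice), 0.75 in batch J (4 against 3) and -0.06 in batch K (2 against 3). For Osgin1 the same differences were 2.81, 1.17 and -0.34, for Txnrd1 0.44, 0.22 and -0.02, for Gclc 0.59, 0.35 and 0.14, and for Gclm 0.53, 0.28 and 0.16. For Nqo1 the differences were 0.28, 0.64 and 0.34, for Hmox1 0.44, 0.29 and 0.19, for Slc7a11 0.61, 0.28 and 0.02, for G6pdx 0.22, 0.03 and -0.26, and for Nfe2l2 -0.23, -0.06 and -0.0026. The difference was highest in batch I and lowest in batch K for 8 of the 10 genes, the exceptions being Nqo1 and Nfe2l2. For dependent against naive mice the batches J (4 against 4), K (2 against 4) and L (3 against 7) all gave differences above 0 for each of the 7 genes that rose, from 0.58 to 0.81 for Srxn1, 2.10 to 4.79 for Osgin1, 0.60 to 0.74 for Gclc, 0.42 to 0.46 for Txnrd1, 0.50 to 0.89 for Nqo1, 0.29 to 0.46 for Hmox1 and 0.20 to 0.29 for Gclm.

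**Figure D3:**
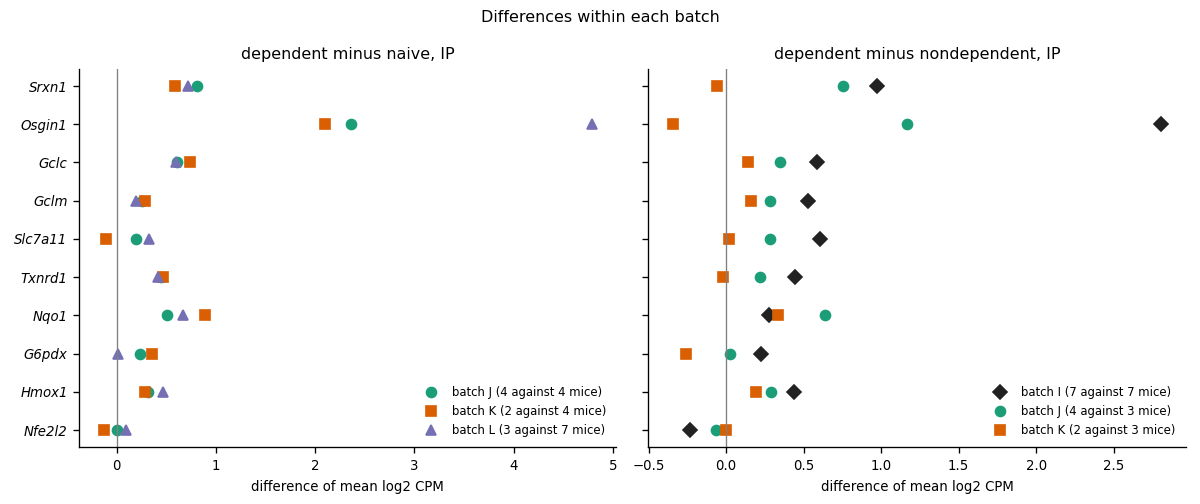
Difference of mean log2 CPM within each batch in IP libraries, not adjusted for sex, for dependent minus naive (left) and dependent minus nondependent mice (right). For dependent minus naive, the symbols of all 3 batches lie above 0 for Srxn1, Osgin1, Gclc, Gclm, Txnrd1, Nqo1 and Hmox1. For dependent minus nondependent, batch K lies below 0 for Srxn1, Osgin1 and Txnrd1.

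Batch I had the highest mean of Srxn1 and Osgin1 among dependent mice. Srxn1 averaged 218 ± 35.5 CPM (SD) in the 7 dependent IP libraries of batch I, 84.9 ± 13.7 in the 4 of batch J, 80.0 ± 5.36 in the 2 of batch K and 126 ± 21.9 in the 3 of batch L. Osgin1 averaged 14.6 ± 6.02, 3.47 ± 1.19, 3.49 ± 0.826 and 12.6 ± 2.39 CPM in the same batches. In nondependent IP libraries Srxn1 averaged 110 CPM in batch I, 53.1 in batch J and 90.02 in batch K, and in naive ones 47.7 in batch J, 53.6 in batch K and 73.7 in batch L, so that the batches also differed within these treatments. The dependent mouse I11 was among the 5 highest IP libraries for 9 of the 10 genes and the dependent mouse I07 for 8, and no other mouse was among them for more than 5. Batch I has no naive mouse, so in that batch dependent mice could be set only against nondependent ones.

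**Figure D4:**
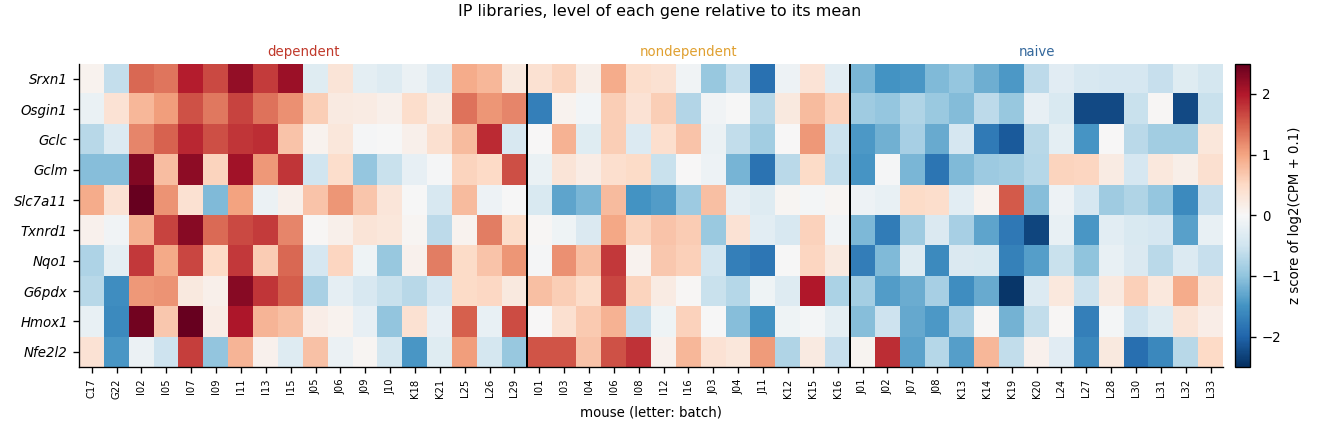
Level of each gene (rows) in each of the 46 IP libraries (columns, named by mouse, the letter being the batch), as a z score of log2(CPM + 0.1) over the libraries of that gene, red above and blue below its mean. The dependent mice of batch I are the reddest block, with I11 and I07 high for most genes, and Nfe2l2 does not follow that block.

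Nondependent mice, which had voluntary ethanol only, were set against naive mice. None of the 10 genes was called, against 0.44% of genes called in either direction (88 of 19979, 0.24% higher and 0.2% lower). By edgeR, 5 of the 10 had an unadjusted p under 0.05, as did 2041 of all 19979 genes, and DESeq2 also called none of the 10. Osgin1 had the largest difference, 1.80 ± 0.50 (adjusted p = 0.0847), and was called in the fit without a count filter, in that without a batch term (adjusted p = 0.0293), in batches J and K only (0.0404) and without mouse I01 or I11. Gclc was at 0.32 ± 0.11 (adjusted p = 0.209), Nqo1 at 0.29 ± 0.13 (0.435), G6pdx at 0.26 ± 0.12 (0.424) and Txnrd1 at 0.23 ± 0.09 (0.286). Srxn1 was at 0.20 ± 0.12, Nfe2l2 at 0.07 ± 0.09, Hmox1 at 0.04 ± 0.13, Gclm at -0.06 ± 0.10 and Slc7a11 at -0.23 ± 0.16. The comparisons share groups of mice, so their values are given side by side and were not correlated.

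Sex was tested as an interaction in the same fits. No gene was called for any of the 3 pairs of treatments in IP (627, 668 and 858 genes at an unadjusted p under 0.05 for dependent minus naive, dependent minus nondependent and nondependent minus naive), among them 0, 2 and 2 of the 10 genes, edgeR with relative log expression size factors called none either, and without a count filter 38, 40 and 44 genes were called, none of them among the 10. For dependent over naive mice the log2 fold change of Srxn1 was 0.76 ± 0.14 in females and 0.98 ± 0.15 in males, that of Osgin1 3.39 ± 0.61 and 3.53 ± 0.66, that of Gclc 0.60 ± 0.13 and 0.82 ± 0.13, and that of Slc7a11 0.47 ± 0.19 and 0.03 ± 0.19. The difference between the sexes was not called for any of them.

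In Input libraries, which hold RNA of all cells of the tissue, 2 of the 10 genes were higher in dependent than in naive mice and none was lower, against 2.38% of 19691 genes called, 1.42% higher (279) and 0.965% lower (190). In such bulk RNA, fewer cells of a type and less RNA per cell cannot be told apart. Srxn1 had 56.1, 121 and 187 CPM (lowest, median and highest) in dependent, 54.3, 112 and 147 CPM in nondependent and 45.4, 78.3 and 138 CPM in naive Input libraries, with wide overlap and a log2 fold change of dependent over naive of 0.44 ± 0.09 (adjusted p = 0.00243). Osgin1 had 0.290, 1.65 and 7.19 CPM in dependent, 0.0780, 0.876 and 2.92 CPM in nondependent and 0, 0.366 and 1.62 CPM in naive Input libraries, of which 3 held no Osgin1 read. It was at or under the floor of 3 counts in 7 of 16 naive and 3 of 15 nondependent Input libraries. That floor stands for 0.125 to 0.234 CPM over the naive ones. The log2 fold change of Osgin1, dependent over naive, was 1.81 ± 0.48 (adjusted p = 0.0299). Leaving out a batch took away 1 or both calls: Srxn1 lost its call without batch K or L (adjusted p = 0.0654 and 0.106), and Osgin1 without any 1 of the 4 batches (0.0649 to 0.301).

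The other 8 genes did not pass in Input. Nqo1 was at 0.41 ± 0.14 (adjusted p = 0.116), Slc7a11 at 0.25 ± 0.14 (0.423), Gclm at 0.17 ± 0.07 (0.205), Nfe2l2 at 0.12 ± 0.15 (0.845), Gclc at 0.10 ± 0.08 (0.702), Txnrd1 at 0.07 ± 0.08 (0.806), Hmox1 at 0.01 ± 0.19 (0.991) and G6pdx at -0.02 ± 0.09 (0.972). Between dependent and nondependent mice none of the 10 genes was called in Input by edgeR or by DESeq2, and 1 was called in the fit without a count filter. By edgeR, 0.355% of all genes were called in either direction, 0.31% higher and 0.0457% lower. An unadjusted p under 0.05 by edgeR was found for 3 of the 10 and for 1349 of all 19691 genes. The log2 fold changes of the 10 genes were between -0.09 and 1.16. Between nondependent and naive mice none of the 10 was called either (0.122% of all genes called, 0.0609% higher and 0.0609% lower, none of the 10 by DESeq2), with values between -0.01 and 0.65. By edgeR, 0 of the 10 and 1411 of all 19691 genes had an unadjusted p under 0.05 there.

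IP and Input libraries of the same mouse were then compared, in the 46 mice with both, to show where the RNA of these genes lies. Of the 10 genes, 9 were higher in IP, against 83.9% of 17191 genes called, 38.5% higher and 45.4% lower. Nfe2l2 was the most enriched (log2 fold change 2.62 ± 0.05), followed by Hmox1 (2.26 ± 0.07), Nqo1 (2.23 ± 0.06), Osgin1 (2.20 ± 0.16), Slc7a11 (2.17 ± 0.07), Gclm (1.75 ± 0.04) and G6pdx (1.12 ± 0.05), while Txnrd1 (0.49 ± 0.04) and Gclc (0.36 ± 0.05) were enriched less, the largest adjusted p being 1.5e-08. The enrichments of Hmox1, Nqo1, Osgin1 and Slc7a11 differed by less than their standard errors add up to. IP was above Input in 46 of 46 mice for Nfe2l2, Hmox1, Nqo1, Slc7a11, Gclm and G6pdx. Srxn1 was at 0.06 ± 0.05 (adjusted p = 0.281), with IP above Input in 17 of 46 mice.

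The ratio of IP to Input differed between treatments for Gclc and Txnrd1. For Gclc the median ratio was 1.45 in dependent (0.916 to 1.93), 1.08 in nondependent (0.739 to 1.75) and 0.884 in naive mice (0.589 to 1.48), and IP was above Input in 17 of 18, 9 of 13 and 6 of 15 mice. For Txnrd1 the median ratio was 1.48, 1.23 and 1.05, with IP above Input in 18 of 18, 13 of 13 and 9 of 15 mice. For Srxn1 it was 1.19, 0.845 and 0.742, with IP above Input in 11 of 18, 4 of 13 and 2 of 15 mice. In a model with a term per mouse, the difference between dependent and naive mice was larger in IP than in Input for Gclc by 0.62 ± 0.11 on the log2 scale (adjusted p = 0.00134) and for Txnrd1 by 0.42 ± 0.08 (adjusted p = 0.00451), against 0.439% of 19576 genes called, 0.22% higher (43) and as many lower. For Srxn1 it was larger by 0.38 ± 0.11 and for Osgin1 by 1.62 ± 0.62, which did not pass (adjusted p = 0.179 and 0.354). The difference between dependent and nondependent mice was larger in IP for Gclc by 0.46 ± 0.10 (adjusted p = 0.0261), against 0.128% of genes called higher (25) and none lower, while Srxn1 (0.42 ± 0.11, adjusted p = 0.0883) and Txnrd1 (0.31 ± 0.08, adjusted p = 0.0798) did not pass. Without the term per mouse, Txnrd1 for dependent minus naive (adjusted p = 0.162) and Gclc for dependent minus nondependent mice (0.453) were no longer called.

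**Figure D5:**
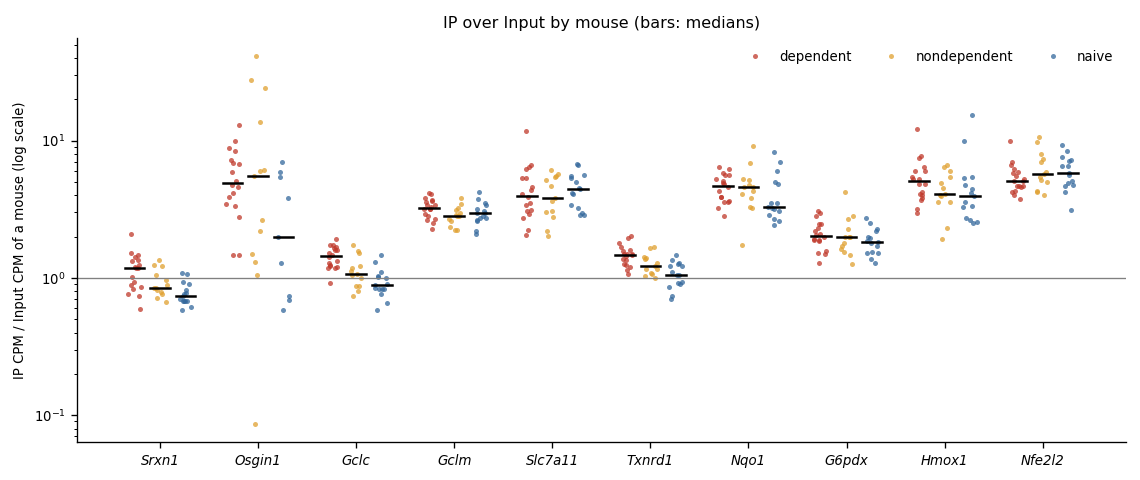
Ratio of IP CPM to Input CPM in each mouse (vertical axis, log scale) for each gene and treatment, with bars at the medians of the mice drawn and a line at 1. For Osgin1, 40 of 46 mice are drawn, since the others have a level of 0 in 1 or both libraries. Gclc and Txnrd1 step down between dependent, nondependent and naive mice, and Nfe2l2 lies above 1 in every mouse.

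How the genes varied together was read from IP libraries of batches I to L after the means of treatment by sex and of batch were removed, over 44 mice and 45 pairs of genes, with permutation p-values adjusted over the 45 pairs. Pearson's r passed for 10 pairs and both Pearson's r and Spearman's rho for 7, and r was above 0 in all 7. The share of pairs passing among all tested genes was not computed, so this count is a description and not a trait of these genes. The closest pair was Gclm and Hmox1 (r = 0.58, permutation p = 4.0e-05, adjusted 0.0018; rho = 0.53, p = 0.00023, adjusted 0.00517; r = 0.51 without the 2 mice farthest from the median of Gclm). Srxn1 went with G6pdx (r = 0.55, permutation p = 0.00014, adjusted 0.00315; rho = 0.55, p = 0.00019, adjusted 0.00517; r = 0.51 without 2 mice), Nqo1 with Hmox1 (r = 0.51, rho = 0.48) and Gclc with Txnrd1 (r = 0.44, rho = 0.50). The other 3 pairs were Srxn1 with Gclm (r = 0.45), Nfe2l2 with Hmox1 (r = 0.44) and Srxn1 with Gclc (r = 0.40, and 0.29 without 2 mice). Osgin1 was in none of the 7 pairs. Between the IP and the Input of a mouse, Txnrd1 was the gene of the 10 that passed by both measures (r = 0.57, permutation p = 0.00013, adjusted 0.0013; rho = 0.59, p = 5.0e-05, adjusted 0.0005).

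Over the same 44 libraries, the genes whose residual levels were most like those of a member are given as a description. Those most like Srxn1 were Pdia3 (r = 0.75), Pdia6 (0.74) and Sdf2l1 (0.70), which encode proteins of the endoplasmic reticulum. Those most like Txnrd1 were Ep400 (0.63), Arhgap18 (0.61) and Keap1 (0.58), the last being the inhibitor of Nrf2. Those most like Gclm were Zmpste24 (0.65), Insig1 (0.65) and Gm20743 (0.64), those most like Slc7a11 were Ptprz1 (0.74), Aida (0.73) and Myo6 (0.72), and those most like G6pdx were Cyb5r3 (0.72), Mpv17l (0.67) and Ctso (0.67). For Gclc they were Ywhaz (0.69), Nxt2 (0.68) and Hdac2 (0.67), for Nqo1 Gm12286 (0.73), Txndc15 (0.70) and Fcgrt (0.70), for Hmox1 Srbd1 (0.64), Gm37403 (0.59) and Serpinb9 (0.58), for Osgin1 Slc14a2 (0.59), Col5a1 (0.56) and Tchh (0.56), and for Nfe2l2 Mad2l1 (0.60), Alkbh8 (0.58) and Nlrc4 (0.57). These values are the largest among the genes tested in IP with a mean of at least 1 CPM and carry no test.

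Genes around the pathway were taken from 5 lists, of which the list of further targets shares Tkt, Pgd, Taldo1, Me1 and Idh1 with the list of NADPH supply and Slc48a1 and Blvrb with that of heme handling. The lists were chosen with earlier results of these data known, so their counts beside the share of all genes are a description. Of 27 tested further Nrf2 targets, 12 were higher in dependent than in naive IP libraries, none was lower and 15 did not pass, against 2.81% of all tested genes higher, with a median log2 fold change of 0.20. They included the glutathione transferases Gstm1 (0.71 ± 0.07), Mgst1 (0.53 ± 0.08) and Gsta4 (0.54 ± 0.08), the epoxide hydrolase Ephx1 (0.97 ± 0.13), glutathione reductase Gsr (0.50 ± 0.09) and thioredoxin Txn1 (0.35 ± 0.08), all with an adjusted p of at most 0.00833. Against nondependent mice 7 of the 27 were higher and none lower, where 1.1% of all tested genes were higher, with Mgst1 at 0.54 ± 0.08, Txn1 at 0.35 ± 0.08, Gstm1 at 0.31 ± 0.07 and Gstp1 at 0.26 ± 0.06 (adjusted p = 0.000101 to 0.0130), while Gsr was at 0.25 ± 0.08 (adjusted p = 0.136). Between nondependent and naive mice 1 of the 27 passed, Gstm1 (0.40 ± 0.08, adjusted p = 0.0102), against 0.24% of all tested genes higher. Gstm1, Gstp1 and Gsta4 belong to multigene families whose reads could not be told apart with certainty. In Input 5 of the 27 were higher in dependent than in naive mice and none was lower, against 1.42% of all tested genes higher.

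Of the 11 regulators of Nrf2, 1 rose in dependent against naive IP libraries and 10 did not pass, where 2.81% of all tested genes were higher, so a single call among 11 genes is not read as a result about the list. The same holds for the single calls among the lists of 8 and 9 genes that follow. The regulator called was the small Maf gene Mafg (0.38 ± 0.10, adjusted p = 0.0133), a dimer partner of Nrf2. The inhibitor gene Keap1 was at 0.18 ± 0.08 (adjusted p = 0.251) and Bach1, a repressor at the same elements, at 0.52 ± 0.19 (adjusted p = 0.109). None of the 11 passed edgeR's test between dependent and nondependent (3 at an unadjusted p under 0.05) or between nondependent and naive mice (2 at an unadjusted p under 0.05). Over all 19979 genes tested, 2369 and 2041 had an unadjusted p under 0.05 in the same comparisons. Of the 8 genes of the pentose phosphate pathway and NADPH supply, Tkt, a transketolase, rose in dependent against naive IP libraries (0.44 ± 0.08, adjusted p = 0.000235), 7 did not pass, and Pgd, which follows G6pdx in the pathway, was at -0.01 ± 0.08. Of the 9 genes of heme handling, the heme transporter Slc48a1 was just inside the threshold (0.29 ± 0.09, adjusted p = 0.0498) and 8 did not pass, with the constitutive heme oxygenase Hmox2 at 0.12 ± 0.09, and against nondependent mice the biliverdin reductase Blvrb rose (0.38 ± 0.09, adjusted p = 0.0139). The call of Slc48a1 was lost in 29 of the 44 fits that left out 1 mouse, with adjusted p-values of up to 0.109 and the lowest log2 fold change (0.23) without the mouse J06.

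Slc7a11 is also a known target of Atf4, the factor of the integrated stress response. Of 12 such genes, 2 rose in dependent against naive IP libraries (2.81% of all tested genes were higher and 1.86% lower), Sesn2 (0.82 ± 0.16, adjusted p = 0.00132) and the amino acid transporter Slc7a5 (0.44 ± 0.10, adjusted p = 0.00641), Phgdh of serine synthesis fell (-0.37 ± 0.09, adjusted p = 0.0113), and 9 did not pass, Atf4 being at 0.11 ± 0.09. Against nondependent mice (1.1% of all tested genes higher and 0.445% lower) Atf4 (0.41 ± 0.09, adjusted p = 0.00514) and Slc3a2, the heavy chain that pairs with Slc7a11 (0.23 ± 0.06, adjusted p = 0.0444), rose and Phgdh fell (-0.42 ± 0.09, adjusted p = 0.00511). The call of Slc3a2 was lost in 12 of the 44 fits that left out 1 mouse (I03, I05, I11, I13, I15, I16, J03, J06, J09, J11, K12 or K18), with adjusted p-values of up to 0.109. None of the 12 passed between nondependent and naive mice by edgeR (4 at an unadjusted p under 0.05, as were 2041 of all 19979 genes).

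Markers of other cells were read beside these results. The summed level of 10 microglia markers was 176 to 744 CPM (median 249.02) in dependent, 188 to 272 CPM (median 223) in nondependent and 187 to 278 CPM (median 236) in naive IP libraries, with the highest sums in the dependent mice I02 (744), J05 (620), I11 (433) and I05 (411). None of the 10 microglia markers passed edgeR's test between dependent and naive IP libraries (median log2 fold change 0.37). There 4 of them, and 3281 of all 19979 genes, had an unadjusted p under 0.05 by edgeR. Of the 10 microglia markers 3, C1qa, C1qb and C1qc, were higher in dependent than in nondependent IP libraries. All 10 were lower in IP than in Input. Without those 4 mice, 7 of the 10 Nrf2 pathway genes were called for dependent minus naive and 1 for dependent minus nondependent mice in IP. Over all 19702 genes tested, 842 and 137 were called in the same fits. Of the 4 mice, I11 was also among the 5 highest IP libraries for 9 of the 10 genes, I02 for 4 and I05 for 2. I02, with the highest microglia sum, was the highest IP library for Gclm, Nqo1 and Slc7a11. Both traits were therefore removed together. Without the 4 mice, the log2 fold changes for dependent minus naive were 0.88 ± 0.11 for Srxn1, 3.39 ± 0.49 for Osgin1 and 0.71 ± 0.11 for Gclc. For dependent minus nondependent mice the log2 fold changes without them were 0.67 ± 0.11 for Srxn1 (adjusted p = 0.00085), 1.59 ± 0.47 for Osgin1 (adjusted p = 0.127), 0.36 ± 0.11 for Gclc (adjusted p = 0.120) and 0.32 ± 0.09 for Gclm (adjusted p = 0.0773), and the median over the 10 genes was 0.32 without the 4 mice and 0.37 with them. Of the 10 astrocyte markers 3 rose against naive mice, Gfap (0.98 ± 0.18), Gjb6 (0.72 ± 0.13) and Fgfr3 (0.26 ± 0.08), and none against nondependent mice. The T cell genes Cd3e, Cd3d, Cd3g and Cd8a had a median count of 0 in the IP libraries of every treatment. Of 8 medium spiny neuron markers 1 was lower in dependent than in naive and 1 in dependent than in nondependent IP libraries, with sums of 1279 to 3947 CPM (median 2445) in dependent, 2214 to 4061 CPM (median 2905) in nondependent and 2199 to 4038 CPM (median 3109) in naive ones. Of the lists of neurons in general, oligodendrocytes and their precursors, endothelium, ependyma and perivascular macrophages, 1 oligodendrocyte marker was lower in dependent than in naive IP libraries and the other markers did not pass in either comparison. Of 5 red blood cell markers, Hba-a2, which has the near copy Hba-a1, was lower in dependent than in naive IP libraries (-7.36 ± 0.56). The other 4 did not pass, with Hba-a1 at -0.17 ± 0.24, Hbb-bs at -0.48 ± 0.24, Hbb-bt at -0.45 ± 0.26 and Alas2 at -0.37 ± 0.50. What sets Hba-a2 apart from these 4 was not tested. Hba-a2 was also lower in nondependent than in naive IP libraries (-6.19 ± 0.65, adjusted p = 8.2e-08) and in dependent than in naive Input libraries (-7.29 ± 0.61), while dependent minus nondependent IP libraries gave -1.16 ± 0.68 (adjusted p = 0.555). The part of microglia, neuron and red blood cell RNA in the results was not tested.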

How the data were processed

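The values are gene counts as the authors deposited them, 1 column per library, from Takara SMART-Seq PLUS libraries of 49 mice. The tools named in the submitters' processing notes are STAR 2.7.10b, Trimmomatic 0.39 and FastQC 0.11.9, with the genome build GRCm38. How genes were counted, and whether by strand, is not given in the sources used here. Of 55471 features, 55144 matched a symbol of the GENCODE annotation used for names, gene positions and exon lengths, and 40308 had a count.

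CPM is the count scaled to the library's total count, and RPKM divides it by the length of the union of exons. Counts were tested with edgeR 4.0.16 in R 4.3.3 (quasi-likelihood F test, robust, trimmed mean normalization, filterByExpr with a minimum count of 10 and total of 15), with means of treatment by sex and a batch term. The differences of the 2 sexes were averaged with equal weight, the SE is the fold change divided by the root of F, and p-values were adjusted by Benjamini-Hochberg over all genes tested (called at 0.05 or below). Within-batch and residual values are on log2 CPM with a prior count of 2. The fits of both fractions had a term per mouse, and the labels give both libraries of a mouse 1 mouse ID. After treatment by sex and batch means were removed, the 2 libraries of a mouse correlated with a median r of 0.180 (0.0488 to 0.428) over 18943 genes, above 0.1 in 40 of 44 mice, and a median of -0.004 for different mice. The best match was the mouse's own library in 30 of the 44 mice and that of another mouse in the rest. Permutation p-values of correlations came from 100000 draws.

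The script of the treatment test was tested on simulated data. Alternatives were DESeq2 1.42.0, other size factors, no count filter, no batch term (on all 6 batches), other sets of batches, each mouse left out and no term per mouse. 3 choices were made after seeing the data: the dispersion estimated inside the fit (also used for the fits with a term per mouse and those that leave out a mouse), the fit without the dependent mice I02, I05, I11 and J05, and the promoter element TGANTCAGC. The genes and lists were chosen with earlier results of these data known. Named were all 10 genes and, of each list, up to 4 genes higher and 4 lower with the smallest p per comparison, with Keap1, Bach1, Gsr, Txn1, Slc3a2, Hmox2, Pgd and Atf4 by role. Ddit3 matched 2 identifiers and was not counted.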

Additional observations from a re-analysis of the deposited data

Results flagged for a closer look

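For 2 of the 10 genes the treatment difference differed between IP and Input, by edgeR's quasi-likelihood test of the interaction with a term per mouse. The difference between dependent and naive mice was larger in IP by 0.6203 on the log2 scale for Gclc (0.71 in IP and 0.10 in Input, adjusted p = 0.00134) and by 0.4206 for Txnrd1 (0.51 in IP and 0.07 in Input, adjusted p = 0.00451). The difference between dependent and nondependent mice was larger in IP by 0.4628 for Gclc (0.38 in IP and -0.01 in Input, adjusted p = 0.0261).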

How the results depend on the processing

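For dependent minus naive mice in IP the 7 calls stayed at 7 under DESeq2, other size factors, no count filter and without the 4 dependent mice I02, I05, I11 and J05, and were 6 with no batch term or without batch I, 5 without batch J, K or L, 4 in batches J and K only and 5 to 7 with 1 mouse left out. The 4 calls of dependent minus nondependent mice in IP became 0 without batch I, in batches J and K only and with no batch term, where the median log2 fold change of the 10 genes was 0.26, 0.25 and 0.34, against 0.37. All genes called in the same 3 fits numbered 3, 0 and 92, against 308. Pairs of treatments are written D-N (dependent minus naive), D-ND (dependent minus nondependent) and ND-N (nondependent minus naive), genes are all genes called, and the cause of the changes was not tested. With batches left out, fewer mice were fitted, and the fit with no batch term took in all 6 batches.

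DESeq2 called 492 (D-ND) and 250 (ND-N) genes in IP and 707 (D-N), 112 (D-ND) and 60 (ND-N) in Input, and 7 of the 10 for D-ND in IP. Without a count filter, genes numbered 1447, 684 and 481 in IP (D-N, D-ND, ND-N), 119 (D-ND) and 77 (ND-N) in Input, 38, 40 and 44 for the sex interactions in IP and 1 for D-N by sex in Input, with 1 of the 10 called for ND-N in IP and 1 for D-ND in Input. With the dispersion inside the fit, genes numbered 142 (D-ND) and 49 (ND-N) in Input, 7 of the 10 were called for D-ND in IP and 1 in Input, and G6pdx was at 0.001153 for D-ND in IP.

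With no batch term, genes numbered 92 (D-ND) and 155 (ND-N) in IP and 28 and 51 in Input, 0 of the 10 were called for D-ND and 1 for ND-N in IP, and D-N was 0.1238 for G6pdx in Input, 0.008513 for Nfe2l2 in IP and 0.07929 for Pgd in IP. In batches J and K only, genes numbered 235, 0 and 15 in IP (D-N, D-ND, ND-N) and 17, 0 and 8 in Input, 4, 0 and 1 of the 10 were called in IP and 0 for D-N in Input, ND-N in IP was 0.04535 for Gclm and -0.05322 for Nfe2l2, and D-N was -0.3099 for Hmox1 in Input and 0.05142 for Pgd in IP.

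Without batch I, genes numbered 3 (D-ND) in IP and 0 (D-ND) and 10 (ND-N) in Input, 0 of the 10 were called for D-ND in IP and 1 for D-N in Input, ND-N in IP was 0.02329 for Gclm and -0.03304 for Nfe2l2, D-ND was 0.02717 for Nfe2l2 in IP, and D-N was -0.04016 for Hmox1 in Input and 0.02056 for Pgd in IP. Without batch J, genes numbered 294 (D-N) and 25 (ND-N) in IP and 133 (D-N) and 41 (D-ND) in Input, 2 of the 10 were called for D-ND in IP and 1 for D-N in Input, and D-N was -0.00387 for Atf4 in IP, 0.04675 for G6pdx in Input and -0.07855 for Nfe2l2 in Input. Without batch K, genes numbered 355 (D-N) and 25 (ND-N) in IP and 281 (D-N) in Input, 0 of the 10 were called for D-N in Input, D-ND was 0.1381 for G6pdx in IP, D-N was -0.007789 for Gclc and -0.1404 for Hmox1 in Input and 0.02411 for Nfe2l2 in IP, and ND-N was -0.03764 for Srxn1 in IP. Without batch L, genes numbered 439 (D-N) and 36 (ND-N) in IP and 95 (D-N) and 15 (ND-N) in Input, 0 of the 10 were called for D-N in Input, D-ND was 0.03384 for G6pdx in IP, D-N was -0.1511 for Hmox1 in Input, and ND-N was -0.002926 for Nfe2l2 in IP. Without the 4 dependent mice, genes numbered 137 (D-ND) in IP and 9 (D-ND) in Input, and 1 of the 10 was called for D-ND in IP and 1 for D-N in Input.

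With 1 mouse left out at a time, 4 to 8 of the 10 genes were called for D-ND in IP (7 with all mice in the same setting, 4 without I01, I03, I07, I11 or J11), 0 to 1 for ND-N in IP and 0 to 2 for D-ND in Input (1 with all mice, 0 without I11, 2 without I05, I07, J10 or K12). Genes called ran from 60 to 149 for ND-N in IP (106 with all mice, 60, 69 and 65 without J08, K13 and K19), from 346 to 675 for D-N in Input (346 without L25), from 75 to 172 for D-ND in Input (75 without I11) and from 27 to 62 for ND-N in Input (27 without K16). Values that crossed 0 ran from -0.05056 to 0.1015 for G6pdx (D-ND, IP), -0.02369 to 0.08454 for Hmox1 (ND-N, IP), -0.04806 to 0.1388 for Hmox1 (D-N, Input), -0.04343 to 0.04986 for G6pdx (D-N, Input) and -0.05301 to 0.01988 for Pgd (D-N, IP). With no replicate block (no term per mouse), the fraction by treatment interaction gave 14 genes and 1 of the 10 for D-N and 4 genes and 0 of the 10 for D-ND, with Txnrd1 at 0.4224 (D-N) and Gclc at 0.4518 (D-ND) not called. IP minus Input calls of the 10 genes stayed at 9.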
